A study of Mus musculus with 5 samples.

Results

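In IL-2-activated CD8-TC, 229 of 9135 Runx3-bound regions (2.51%, 95% Wilson interval 2.21 to 2.85) lay at the starts of 2 protein-coding genes on opposite strands and overlapped no called H3K4me1 peak. A region was counted when its centre was less than 1 kb from a gene start on each strand (GENCODE vM1 annotation of the mouse genome mm9) and when it shared 0 bp with every H3K4me1-marked region. The choice used position alone, with no measure of binding strength. The 229 regions lay at 223 pairs of genes, that is at 446 genes, and 6 pairs held 2 regions each.

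The data came from splenic T cells of ICR mice, enriched with magnetic beads that carry anti-CD8, activated for 2 days through the T cell receptor with anti-CD3 and anti-CD28 antibodies and then kept for 4 days with IL-2 at 100 u/ml. The 5 libraries were 2 of chromatin bound by anti-Runx3 antibody, 2 of the control precipitation with non-immune serum (NIS) and 1 of anti-H3K4me1. All libraries share this one treatment, so no cells without Runx3 or without IL-2 enter these values. The deposited lists give the positions of called peaks and no reads, and the labelled cell type could therefore not be checked against marker genes. Read depth is not in the lists, although the authors report numbers of aligned reads for each antibody and for NIS. Repeats had been joined before peaks were called, so no spread between repeats can be given. Intervals below are 95% intervals of counting error over regions or gene starts, and they hold no biological error.

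A bidirectional promoter is a short stretch of DNA from which a pair of neighbouring genes is transcribed in opposite directions. Such promoters are usually rich in CpG, usually lack a TATA box, and often serve genes with housekeeping tasks such as DNA repair and mitochondrial translation. Runx3 is a transcription factor of CD8-TC that binds the RUNX motif through its Runt domain together with its partner Cbfb. H3K4me1 is a histone mark that is typical of enhancers and of the flanks of active promoters, and it is usually low at the start of an active gene itself.

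The following stretches lie between annotated divergent starts inside Runx3-bound regions and hold a RUNX motif. Whether they act as promoters of both genes was not measured. Each is the plus strand of mm9, 5′ to 3′, from the base after the start of the minus-strand gene (named first) to the base before the start of the plus-strand gene. No annotated exon overlaps them. Capitals mark a RUNX motif on either strand, TGTGGT or TGTGGC or TGCGGT or TGCGGC on the plus strand and ACCACA or GCCACA or ACCGCA or GCCGCA where the motif reads on the minus strand.
Rps28/Ndufa7, chr17:33961508-33961535: ACCGCAcgcggtacccaggaatcctcgg
Ssna1/Anapc2, chr2:25127959-25127997: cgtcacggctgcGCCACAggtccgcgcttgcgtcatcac
1300017J02Rik/Topbp1, chr9:103207413-103207544: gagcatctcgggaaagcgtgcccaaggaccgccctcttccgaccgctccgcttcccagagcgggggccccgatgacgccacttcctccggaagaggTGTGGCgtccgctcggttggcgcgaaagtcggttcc
Erich1/Gm10699, chr8:14090328-14090460: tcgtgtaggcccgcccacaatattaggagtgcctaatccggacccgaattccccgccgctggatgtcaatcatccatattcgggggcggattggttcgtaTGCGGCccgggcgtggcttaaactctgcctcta
Mrpl49/Fau, chr19:6057759-6057892: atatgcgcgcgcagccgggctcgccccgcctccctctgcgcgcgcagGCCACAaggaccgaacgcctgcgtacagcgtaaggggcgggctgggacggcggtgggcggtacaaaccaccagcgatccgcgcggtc
Pgm3/Rwdd2a, chr9:86465450-86465659: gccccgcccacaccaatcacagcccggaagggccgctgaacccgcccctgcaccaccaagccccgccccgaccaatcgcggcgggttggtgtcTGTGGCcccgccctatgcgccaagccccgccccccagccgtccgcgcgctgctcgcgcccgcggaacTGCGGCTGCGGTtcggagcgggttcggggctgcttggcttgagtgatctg
Hist1h2ag/Hist1h2bj, chr13:22134819-22135082: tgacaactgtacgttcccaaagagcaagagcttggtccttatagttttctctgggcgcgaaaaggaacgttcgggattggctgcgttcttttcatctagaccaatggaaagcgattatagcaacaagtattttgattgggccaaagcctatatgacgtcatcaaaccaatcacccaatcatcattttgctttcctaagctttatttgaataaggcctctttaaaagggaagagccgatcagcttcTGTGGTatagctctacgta
Hist1h2bl/Hist1h2ai, chr13:21808013-21808280: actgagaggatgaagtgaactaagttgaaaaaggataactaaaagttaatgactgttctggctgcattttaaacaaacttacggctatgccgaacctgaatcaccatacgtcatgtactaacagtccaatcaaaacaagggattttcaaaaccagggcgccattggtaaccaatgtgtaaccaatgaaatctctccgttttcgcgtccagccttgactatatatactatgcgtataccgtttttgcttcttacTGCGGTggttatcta
Atg13/Harbi1, chr2:91550734-91551008: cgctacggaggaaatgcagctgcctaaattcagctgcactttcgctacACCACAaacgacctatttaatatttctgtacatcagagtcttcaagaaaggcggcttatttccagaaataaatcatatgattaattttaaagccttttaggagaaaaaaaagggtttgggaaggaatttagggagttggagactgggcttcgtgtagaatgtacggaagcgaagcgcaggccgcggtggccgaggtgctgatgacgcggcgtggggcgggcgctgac

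The stretch of Pgm3/Rwdd2a held 3 RUNX motifs within 210 bp, and the last 2 of them touched each other. The stretch of Rps28/Ndufa7 was 28 bp long and began with its motif. The histone stretches held several copies of the CCAAT box. By contrast, the following stretches lay inside Runx3-bound regions in which no RUNX motif was found over the whole region, and capitals are absent for that reason.
Gtf2e1/Rabl3, chr16:37539876-37539970: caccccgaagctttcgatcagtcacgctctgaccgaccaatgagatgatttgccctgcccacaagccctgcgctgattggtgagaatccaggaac
Fam126b/Ndufb3, chr1:58643168-58643227: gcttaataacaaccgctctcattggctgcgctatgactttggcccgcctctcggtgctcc

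At the 12 regions of DNA repair genes with a RUNX motif in the central 200 bp, the motif nearest the centre lay outside the stretch between the starts, from 5 to 462 bp from the nearer start (median 104 bp). These sites are given here, as 26 bases with the motif in capitals, read in the direction of the motif. Only the motif nearest the region centre is in capitals.
Recql5/Sap30bp, chr11:115794956-115794981, minus strand: cacagcgcggTGTGGCtcaggcctat
Gen1/Smc6, chr12:11272926-11272951, plus strand: cggactgtccTGCGGCgggcgcctgt
Xrcc4/Tmem167, chr13:90229246-90229271, plus strand: gtctgaatggTGCGGCatgggcggag
Ndufaf2/Ercc8, chr13:108948386-108948411, minus strand: ccgcagagttTGCGGTtcttggtgtc
Fen1/1810006K21Rik, chr19:10278652-10278677, minus strand: aggaaaaggaTGTGGTcccttgcgcg
Dclre1b/Ap4b1, chr3:103612893-103612918, plus strand: aaacccaccgTGTGGTcacagtgcat
Mbd4/Ift122, chr6:115803371-115803396, minus strand: ggaccctggcTGTGGCatctgtagct
Rad51ap1/D6Wsu163e, chr6:126889563-126889588, plus strand: ggggagcagcTGTGGCggtttcaatt
Rad51ap1/D6Wsu163e, chr6:126890178-126890203, plus strand: gttcagtgttTGTGGTcaactaggct
Lig4/Abhd13, chr8:9977859-9977884, minus strand: ccggagctccTGCGGCgcggcgggcc
Atm/Npat, chr9:53344819-53344844, minus strand: agcgcagtcgTGCGGCggcgcatgcc
1300017J02Rik/Topbp1, chr9:103207366-103207391, minus strand: cagtttcggcTGCGGCgcagctcatc

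The limit of 1 kb fixed how far a member could lie from both starts, and within it the distances varied. The starts of a pair were a median of 181 bp apart (quartiles 87.0 and 374, from 3 to 1064 bp), and 193 of the 229 regions (84.3%) had starts less than 500 bp apart. In 152 regions (66.4%, 60 to 72.2) the genes were divergent, with a gap between the starts, and in 77 (33.6%) the starts had passed each other, so that the first part of one gene overlapped the first part of the other. The distance had a median of 139 bp in divergent pairs (quartiles 75.5 and 264) and of 308 bp in overlapping pairs (quartiles 155 and 574).

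Both starts lay inside the bound region in 129 members (56.3%, 49.9 to 62.6), 1 start in 77 (33.6%) and none in 23 (10%). The region centre was a median of 66 bp from the nearer start (quartiles 30 and 157, at most 682 bp) and 241 bp from the farther one (quartiles 134 and 455). It lay within 100 bp of the midpoint of the starts in 97 members (42.4%) and within 250 bp in 161 (70.3%). The centre was nearer to the plus-strand start in 113 members and nearer to the minus-strand start in 116, so that neither strand was favoured.

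The centre fell between the starts in 92 members (40.2%, 34.0 to 46.6), while the positions allowed by the 1 kb limit lay between the starts for a mean of 18.1%. In divergent pairs the centre was in the gap in 66 of 152 (43.4%, 35.8 to 51.4; 13.9% of allowed positions). The share rose with the size of the gap. It was 15 of 56 (26.8%, 17 to 39.6) for starts less than 100 bp apart, where 3.15% of allowed positions were in the gap, 25 of 54 (46.3%, 33.7 to 59.4) from 100 to under 250 bp, and 26 of 42 (61.9%, 46.8 to 75) from 250 bp on, where 34.9% of allowed positions were in the gap. In the other 86 divergent members (56.6%) the centre was inside one of the genes. Regions at one-way starts, or one-way regions, were those centred less than 1 kb from a gene start on 1 strand only. Some of these lay beside a pair whose other start was farther off, as at Tmc6/Tmc8 and Srgap2/Fam72a. Of 1341 unmarked one-way regions, 616 (45.9%, 43.3 to 48.6) were centred downstream of the start. The difference was 10.6 percentage points (Newcombe interval 2.26 to 18.7), and a divergent pair has a gene on each side while a one-way start has a gene on 1 side only. Unmarked one-way regions also lay close to their start, with centres a median of 133 bp from it. The allowed positions count all distances under 1 kb alike, so a preference for the gap beyond nearness to a start was not tested.

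**Figure D1:**
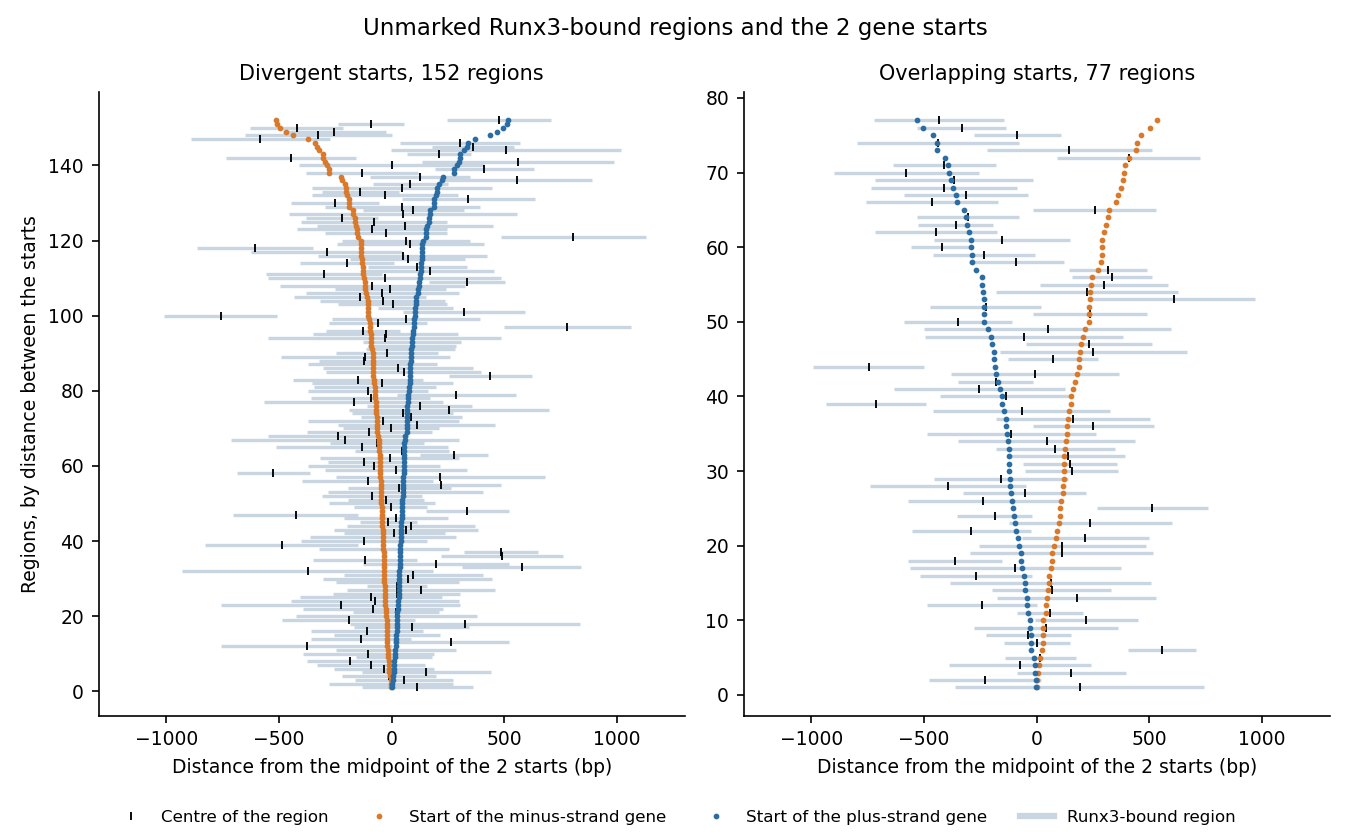
Each row is 1 of the 229 Runx3-bound regions, ordered from the bottom by the distance between the starts of its gene pair, and the horizontal axis is the distance in bp from the midpoint of the starts. Light bars are the regions, black ticks their centres, and orange and blue points the starts of the minus-strand and plus-strand gene; 161 of 229 centres lie within 250 bp of the midpoint, and the rest lie farther out on both sides.

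The members named for the extremes of distance show this range. Slc7a6os/Prmt7, of which Prmt7 is an arginine methyltransferase, had starts 3 bp apart inside a region of 494 bp. The starts of 2810004N23Rik/Gnpat and of Cox15/Cutc were 4 bp apart. Gnpat catalyses the first step of ether lipid synthesis, and Cox15 takes part in the making of haem a for cytochrome oxidase. At the other end, the starts were 1019 bp apart at Ankrd17/Gm9958, 1030 bp at Dirc2/Hspbap1 and 1064 bp at Bcl2l12/Irf3. Irf3 is a transcription factor of the antiviral interferon response, and its region (chr7:52252828-52253403) was centred 97 bp from the Irf3 start. The members just inside the limit had a farther start at 967 bp (Bcl2l12/Irf3) and 990 bp (Dirc2/Hspbap1), and the regions just outside it had one at 1057 bp (Tmc6/Tmc8) and 1059 bp (Srgap2/Fam72a).

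The regions were of ordinary width. They had a median of 545 bp (quartiles 445 and 657, from 250 to 1113 bp), against 542 bp for unmarked regions at one-way starts and 516 bp for regions over 1 kb from gene starts. The widest were at Ddx5/Ccdc45 (1113 bp), Cox15/Cutc (1105 bp), Plekhj1/Sf3a2 (1095 bp), 2310044H10Rik/Fam71e1 (1062 bp) and Atp6v1d/Eif2s1 (1036 bp). Ddx5 is an RNA helicase, Sf3a2 a splicing factor, Atp6v1d a subunit of the vacuolar proton pump and Eif2s1 the alpha subunit of translation initiation factor eIF2. The 6 pairs with 2 regions, which were singled out after their values were seen, were 1700040I03Rik/Cct7, Cep57/Fam76b, Gart/Son, Gm9887/Arf6, Nup98/Pgap2 and Rad51ap1/D6Wsu163e. Their centres were 543 bp (Gart/Son) to 760 bp (Nup98/Pgap2) apart.

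Bidirectional starts carried Runx3 more often than one-way starts. Of all 1393 pairs of protein-coding starts on opposite strands less than 2 kb apart, 226 (16.2%, 14.4 to 18.3) had an unmarked Runx3-bound region less than 1 kb from both starts. Counted as starts, one-way starts were those with no partner on the other strand less than 2 kb away. Of 19588 such starts, 1298 (6.63%, 6.29 to 6.98) had an unmarked Runx3-bound region less than 1 kb away. The difference was 9.60 percentage points (7.72 to 11.7), a ratio of 2.45. Counted over genes, 446 of the 2755 genes with a bidirectional partner (16.2%) had a member at their start. A pair had less room for a region than a one-way start, since the centre had to be near both starts. On the other hand, a pair holds 2 starts and a one-way start only 1, and over genes 1 region counts for both genes of its pair. The part of these units in the difference was not tested. The number 226 exceeds 223 because a few starts belong to several pairs.

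The arrangement of the genes made no difference that could be detected. Runx3 was at 150 of 925 divergent pairs and at 76 of 468 overlapping pairs, 16.2% of each, with an interval of the difference from -4.27 to 3.94 percentage points. The share was highest for close starts. It was 19.0% (14.9 to 23.8) of divergent pairs less than 100 bp apart, 19.4% from 100 to under 250 bp, 18.1% from 250 to under 500 bp, 13.3% (7.56 to 22.2) from 500 to under 1000 bp and 1.67% (0.458 to 5.87) from 1000 to under 2000 bp. In overlapping pairs it was 28.3% (17.3 to 42.5), 19.8%, 17.1%, 13.4% and 4.00% over the same distances. The stretch that is less than 1 kb from both starts shrinks as the starts move apart, and its part in the fall was not tested.

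CpG content was higher at bidirectional starts and went with Runx3 occupancy. A pair had a median of 38 CpG dinucleotides in the 500 bp at its midpoint (quartiles 27.0 and 50) and a one-way start 19.0 (6 and 41.0). With all starts split by this number into 5 groups of nearly equal size, Runx3 was at 0 of 57 pairs in the group with the fewest CpG (0 to 4; upper Wilson bound 6.31%), at 2.91% with 5 to 12 CpG, 12.1% with 13 to 29, 19.7% with 30 to 45 and 19.8% with 46 to 105. At one-way starts the shares were 0.730%, 1.90%, 5.90%, 12.4% and 12.9%. Pairs exceeded one-way starts by 6.22 percentage points (2.73 to 10.8) with 13 to 29 CpG, 7.23 (3.89 to 11) with 30 to 45 and 6.90 (3.28 to 11) with 46 to 105. In the groups with fewer CpG the intervals of the difference spanned 0 (-1.05 to 5.59 and -0.956 to 6.33).

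**Figure D2:**
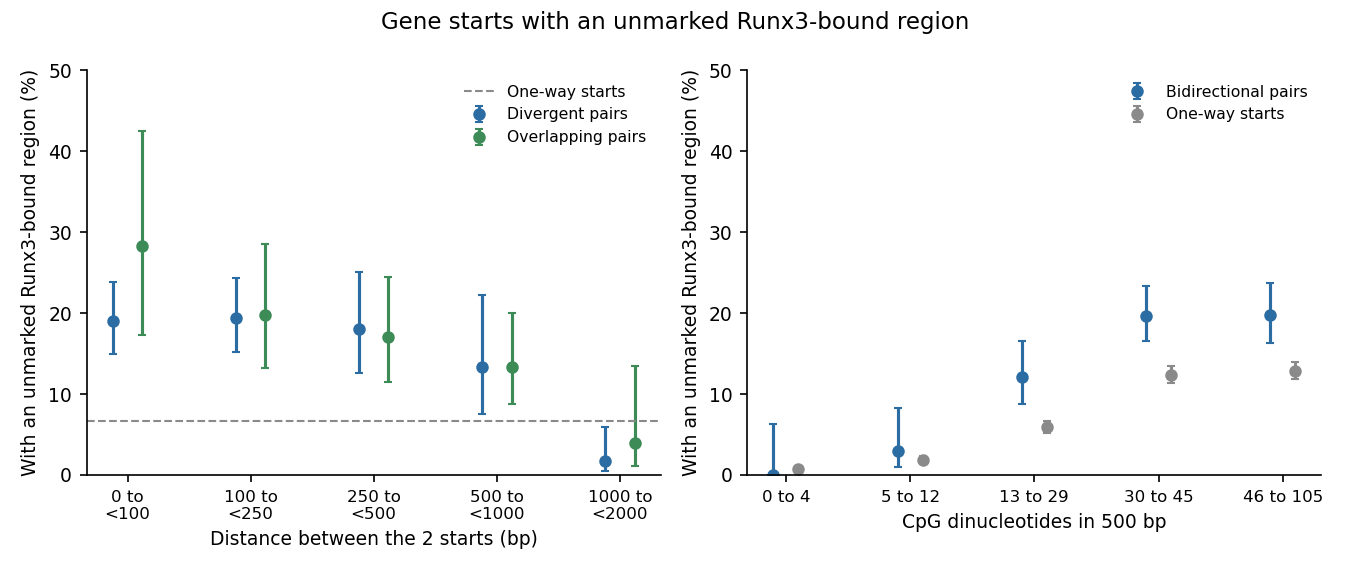
The vertical axes show the percentage of gene starts with an unmarked Runx3-bound region, with 95% Wilson intervals as bars, by distance in bp between the starts of a pair (left) and by CpG number in 500 bp (right). Pairs with starts less than 1000 bp apart lie above the dashed line of one-way starts (6.63%), and pairs (blue) lie above one-way starts (grey) from 13 CpG on, at 12.1% to 19.8% against 5.90% to 12.9%.

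The annotation itself holds provisional genes, named with a Gm number or a Rik suffix, whose starts may be less certain. Such a gene was part of 58 members (25.3%, 20.1 to 31.3) and both genes were provisional in 2. Among pairs of genes with ordinary names, 169 of 982 (17.2%, 15.0 to 19.7) had an unmarked Runx3-bound region, and among one-way starts of such genes 1230 of 16554 (7.43%, 7.04 to 7.84), a difference of 9.78 percentage points (7.51 to 12.3). Across the autosomes the share of bound pairs ran from 9.09% on chromosome 17 to 27.0% on chromosome 16, and it exceeded that of one-way starts on all 19 autosomes. None of the 36 pairs on chromosome X was bound. Taking 3 counts as the upper limit of a count of 0, which is not a Wilson bound, allows a share of up to 8.33%. At one-way starts Runx3 was at 17 of 860 on chromosome X (1.98%) and at 1281 of 18711 on the autosomes (6.85%).

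H3K4me1 overlap was rare at bidirectional starts. Of all 236 Runx3-bound regions at bidirectional starts, 7 (2.97%, 1.44 to 5.99) overlapped an H3K4me1-marked region, against 202 of 1543 (13.1%, 11.5 to 14.9) at one-way starts, a difference of -10.1 percentage points (-12.5 to -6.70). Within regions above the median CpG content, an alternative added after the data were examined, the difference was -2.59 (-4.78 to 1.28), so that it no longer excluded 0. The 7 marked regions were at Hjurp/Trpm8, Limd2/Gm10840, Sharpin/Maf1, Trmt6/Mcm8, Park7/Tnfrsf9, Gm9967/Ypel3 and Taf5l/Urb2. Their overlap ran from 13 bp at Park7/Tnfrsf9, where Tnfrsf9 is the costimulatory receptor 4-1BB, to 72.0% of the region at Gm9967/Ypel3.

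Around the unmarked members the mark appeared at a short distance or was far away. The nearest H3K4me1-marked region was a median of 23.1 kb off (quartiles 1.90 and 58.5 kb), against 15.2 kb for unmarked regions at one-way starts. It was within 1 kb of 45 members (19.7%, 15.0 to 25.3), against 17.7% at one-way starts (difference 1.90 percentage points, -3.19 to 7.86), and within 5 kb of 75 (32.8%), against 36.1% (difference -3.34, -9.65 to 3.46). Neither difference exceeded its counting error. The nearest were 13 bp away at Dpysl2/Gm5464, 80 bp at 6330578E17Rik/Unc50 and 92 bp at Hspa14/Cdnf. Dpysl2 is a microtubule-binding protein of the collapsin response family and Hspa14 a chaperone of the Hsp70 family.

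The mark stood beside the region and not over it, as the choice of members requires within the region. The sides were unequal at some distances. At 1 kb from the centre H3K4me1 covered 10% of members on the side of the plus-strand gene and 6.55% on that of the minus-strand gene, at 3 kb 7.86% and 3.49%, and at 5 kb 2.62% and 3.93%. The gap was wide at 2 kb, a distance picked after the values were seen, where the mark covered 31 members (13.5%, 9.70 to 18.6) on the side of the plus-strand gene and 12 (5.24%, 3.02 to 8.93) on the side of the minus-strand gene. Taking all starts, bound or not, H3K4me1 was at the midpoint of 17 of 1393 pairs (1.22%) and at 1.33% of one-way starts. It was within 1 kb of 13.1% of pairs and 7.58% of one-way starts (difference 5.56, 3.85 to 7.47). Pairs with Runx3 were those with a region centred less than 1 kb from both starts, and the others could hold one near 1 start. Pairs with Runx3 had H3K4me1 within 1 kb in 19.3% and pairs without Runx3 in 11.9% (difference 7.42, 2.45 to 13.2). At one-way starts these shares were 24.6% and 6.18% (difference 18.4, 16.2 to 20.7).

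**Figure D3:**
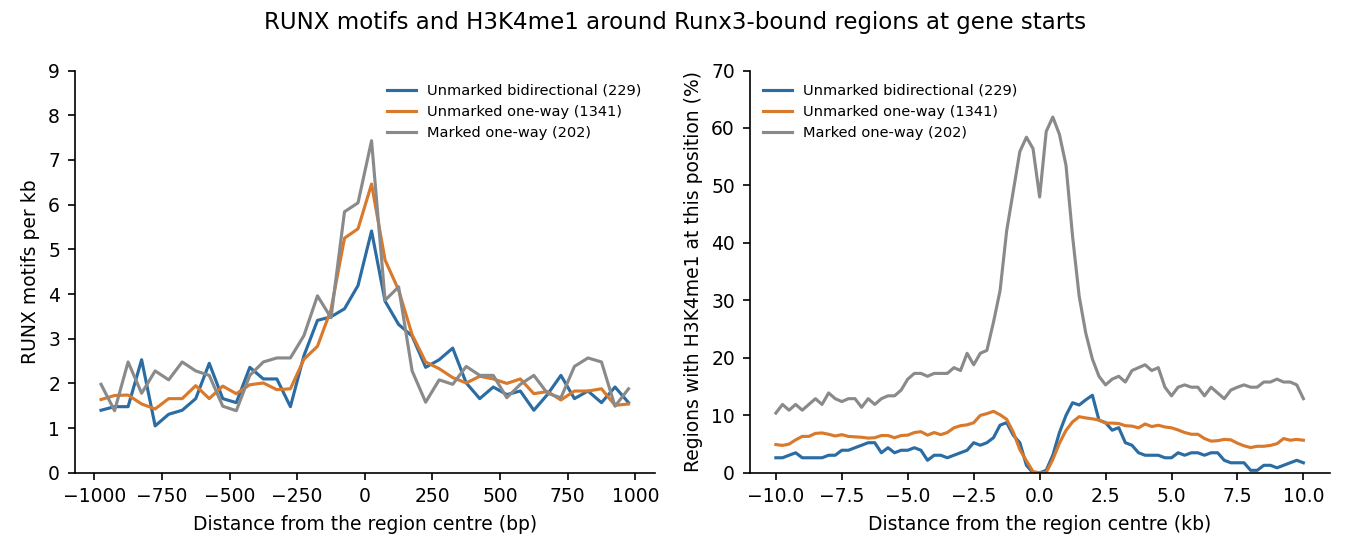
Left, RUNX motifs per kb in bins of 50 bp against distance from the region centre; right, the percentage of regions with an H3K4me1-marked region at each distance from the centre, with the genome's plus direction to the right. Motifs of the 229 unmarked bidirectional regions (blue) peak at the centre at 5.41 per kb, below the 6.46 of unmarked one-way regions (orange), and H3K4me1 is 0 at the centre of both by the way they were chosen, with 13.5% of bidirectional regions covered 2 kb to the right.

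Most members held a RUNX motif, and the variants with a CpG were the common ones. A motif was found over the whole region in 202 of 229 members (88.2%, 83.4 to 91.8), against 90.4% of unmarked one-way regions. Motifs were also common without Runx3, since 87.9% of 1000 bp windows at the midpoints of pairs without Runx3 held a motif, against 95.1% at the pairs of the members. These windows were longer than most regions (median 545 bp), so 87.9% and 88.2% are not shares over equal lengths. The motif was in the central 200 bp in 146 members (63.8%, 57.3 to 69.7). The central window held 1 motif in 103 members, 2 in 37 and 3 in 6. TGCGGT was in 26.2% of the windows, TGCGGC in 23.1%, TGTGGC in 15.3% and TGTGGT in 13.5%. In Runx3-bound regions over 1 kb from gene starts the order was the other way round, with TGTGGT in 61.7%, TGTGGC in 28.9%, TGCGGT in 10.8% and TGCGGC in 4.74%. Both strands were searched, and a window could hold several variants.

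Against bidirectional starts without Runx3, the largest ratio among the variants was that of TGCGGT. Such pairs had no region centred less than 1 kb from both starts, and may hold one near 1 start. In windows of 200 bp at the midpoints of 1160 such pairs any RUNX motif was found in 31.6% (28.9 to 34.3), a difference of 32.2 percentage points (25.2 to 38.7). TGCGGT was in 5.34% of them, a difference of 20.9 (15.4 to 27.0) and a ratio of 4.90. The ratios were 2.34 for TGTGGT, 1.65 for TGCGGC and 1.47 for TGTGGC. Region centres are set by the peaks and midpoints by the annotation. With windows at the midpoint in both, which was added after the data were examined, RUNX motifs were in 45.6% of the pairs of the members (difference 14, 7.10 to 21.0) and TGCGGT was in 14.6% (difference 9.26, 4.99 to 14.6), while for the other variants the interval of the difference included 0. Over all 1393 bidirectional midpoints RUNX motifs were in 34.0% and TGCGGT in 6.82%. Pairs without Runx3 also included more starts that lay far apart. Of 170 pairs with starts 1000 to under 2000 bp apart, 4 (2.35%) had an unmarked Runx3-bound region. The midpoint of such a pair is far from either start. The part of this spacing in the differences from starts without Runx3, here and below, was not tested.

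Against unmarked regions at one-way starts the differences were small. RUNX motifs were in 71.3% of those windows (difference -7.53, -14.4 to -1.09), but windows of 100 bp and of 400 bp gave differences of -4.29 (-11 to 2.70) and -4.49 (-10.2 to 0.275). TGTGGT was less common in members than in one-way regions (13.5% against 22.8%, difference -9.28, -13.8 to -3.80), and in windows above the median GC content the difference was -3.15 (-8.17 to 3.89). TGCGGT differed by -1.02 (-6.83 to 5.46) and TGCGGC by -1.99 (-7.52 to 4.31). GC content was a median of 64.5% in members, 63.5% in unmarked one-way regions and 49.0% over 1 kb from gene starts. The ratio of observed to expected CpG was 0.871, 0.818 and 0.223 in the same order.

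Pairs of RUNX motifs were less common than in other Runx3-bound regions. A second RUNX motif within 50 bp of the first was found in 6.55% of members, in 16.9% of unmarked one-way regions (difference -10.3, -13.6 to -5.89) and in 28.0% of regions over 1 kb from gene starts. It was in 3.36% of bidirectional starts without Runx3 (difference 3.19, 0.378 to 7.26), and with midpoint windows in both the difference was 0.620 (-1.60 to 4.15). A RUNX motif with an ETS motif within 50 bp was found in 31.0% of members and 33.2% of one-way regions (difference -2.18, -8.37 to 4.55), against 9.14% of bidirectional starts without Runx3 (difference 21.9, 16 to 28.3, or 12.5, 7.35 to 18.6, with midpoint windows in both). The base after the motif was T in 55 of 195 motifs of members (28.2%, 22.4 to 34.9), in 35.3% of those of one-way regions (difference -7.06, -13.4 to 0.0498) and in 48.9% of those over 1 kb from gene starts. The widest 5 of the 6 members with 3 motifs in the central window were Polr3g/Mblac2, Erich1/Gm10699, Jmjd6/1110005A03Rik, Pgm3/Rwdd2a and Pigw/Myo19. Polr3g is a subunit of RNA polymerase III, and its region (chr13:81849862-81850657) held 7 motifs over 796 bp, as many as that of Plekhj1/Sf3a2.

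Within divergent members RUNX motifs were about as dense between the starts as outside them. In the 148 of them with starts at least 20 bp apart, 91 had a RUNX motif in the central window and 35 had one between the starts. There were 44 motifs between the starts (3.92 per kb over 11.2 kb of window) and 76 outside (4.14 per kb over 18.4 kb). The motif read on the plus strand in 57 cases and on the minus strand in 63. Of the printed stretches, that of Pgm3/Rwdd2a had its motifs on the plus strand, and those of Rps28/Ndufa7, Ssna1/Anapc2, Mrpl49/Fau and Atg13/Harbi1 on the minus strand.

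Motifs of other factors common at promoters were frequent too. The core of the ETS motif (AGGAAA or AGGAAG or CGGAAA or CGGAAG) was in 71.2% of members, 66.4% of unmarked one-way regions (difference 4.74, -1.92 to 10.8) and 54.1% of bidirectional starts without Runx3 (difference 17.1, 10.3 to 23.3, or 11, 3.97 to 17.6, with midpoint windows in both). Its CpG form CCGGAA, which overlaps with CGGAAA and CGGAAG, was in 34.9%, 27.8% and 24.6%, with differences of 7.12 (0.746 to 13.9) and 10.4 (3.95 to 17.2; 7.29, 1.02 to 14.1, with midpoint windows). It was in 44.2% of overlapping and 30.3% of divergent members (divergent minus overlapping -13.9, -26.9 to -0.822). The GC box GGGCGG, bound by Sp1 and its relatives, was in 52.8% of members and 45.0% of starts without Runx3 (difference 7.84, 0.769 to 14.8; 10.3, 3.19 to 17.3, with midpoint windows). The CCAAT box, bound by NF-Y, was in 28.4% and 26.4% (difference 2.00, -4.03 to 8.63).

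Over all bidirectional midpoints the shares were 56.1% for the ETS core, 26% for CCGGAA, 46.7% for the GC box and 26.8% for the CCAAT box. The AP-1 motif (TGACTCA or TGAGTCA) was in 1 member (0.437%), against 7.59% of Runx3-bound regions over 1 kb from gene starts (difference -7.15, -7.87 to -5.07). It was in 2.01% of unmarked one-way regions (difference -1.58, -2.55 to 0.514) and 1.79% of all bidirectional midpoints. The TATA box TATAAA was in 3.06% of members, YY1 AAGATGG in 7.42%, the E box CACGTG in 6.11%, the CRE TGACGTCA in 3.06% and the NRF1 core GCATGCGC in 2.18%, and for these the interval of the difference from starts without Runx3 spanned 0. Over all bidirectional midpoints these were 3.59%, 5.46%, 6.75%, 2.44% and 4.02%. In all 18 motifs, variants and modules were compared, and the intervals are not adjusted for that number.

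**Figure D4:**
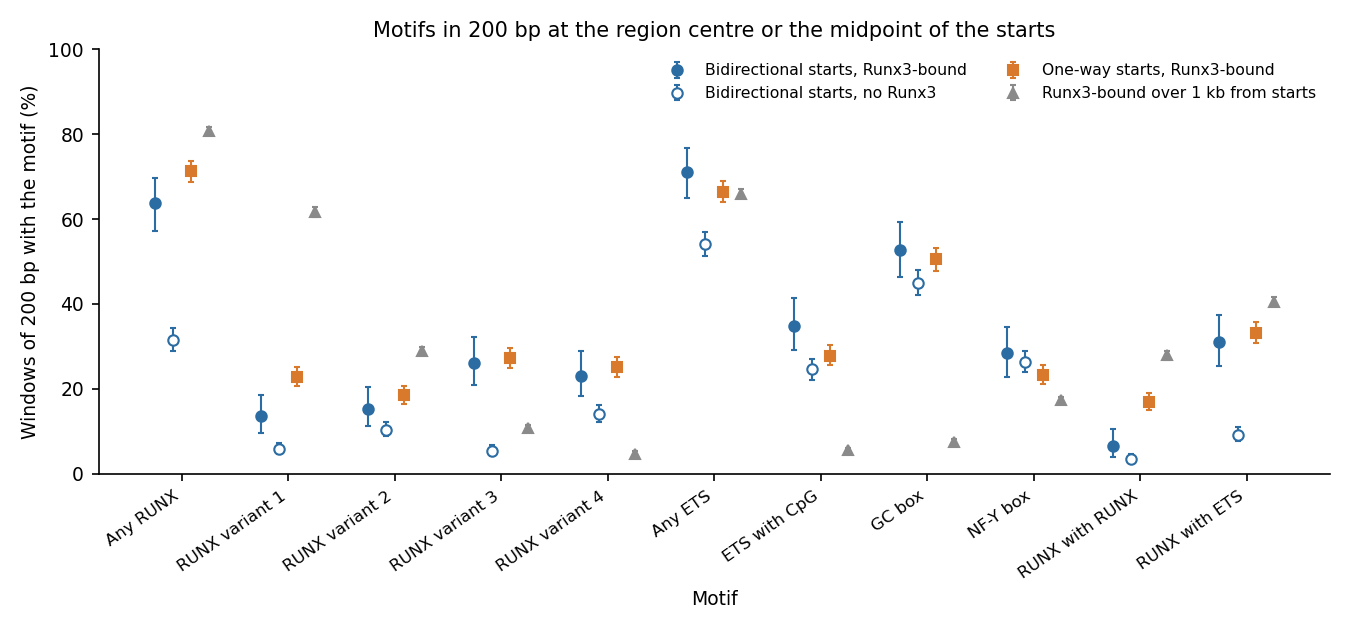
The vertical axis is the percentage of 200 bp windows with each motif on the horizontal axis, with 95% Wilson intervals as bars, at the centre of Runx3-bound regions or at the midpoint of bidirectional starts without Runx3 (open circles). RUNX variant 1 is TGTGGT, 2 is TGTGGC, 3 is TGCGGT and 4 is TGCGGC, and ETS with CpG is CCGGAA; variant 3 stands at 26.2% in members (filled circles) and 5.34% at starts without Runx3, and variant 1 at 13.5% in members and 61.7% over 1 kb from starts (triangles).

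Of the 229 members, 64 (27.9%, 22.5 to 34.1) were at a gene of one of 12 lists, which had been drawn up with earlier results of these data known and are thus no independent evidence. Of all 1393 bidirectional pairs, 282 (20.2%, 18.2 to 22.4) held a gene of these lists. Shares below are of the list's genes that have a bidirectional partner, and over all such genes the share was 16.2%. With 6 to 56 such genes a list, 11 of the 12 intervals included that value. The one-way genes of a list had a higher share than its bidirectional genes in 6 of the 12 lists, namely DNA replication and cell cycle (26.6% against 16.7%), replication-dependent histones (30% against 18.9%), RNA splicing (26.9% against 22.7%), T cell genes (21.7% against 16.7%), cytosolic ribosomal proteins (18.8% against 14.3%) and the respiratory chain (18.2% against 17.1%). The excess at bidirectional starts over all genes was therefore not seen within each list, and these differences were not tested. Lists that go by gene name can miss a gene, as that of cytosolic ribosomal proteins misses Fau at Mrpl49/Fau.

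Genes of DNA repair had the largest number of members. Of 135 annotated genes of this list 56 had a bidirectional partner (41.5%), against 12.3% of all genes, and 16 of the 56 (28.6%, 18.4 to 41.5) had a member. They fell in 16 regions at 15 pairs. For double-strand breaks these were Atm/Npat, with the kinase that signals breaks and a coactivator of histone genes, Hscb/Chek2, with the checkpoint kinase, Brca1/Nbr1, Xrcc4/Tmem167 and Lig4/Abhd13, with both parts of the end-joining ligase, 1300017J02Rik/Topbp1, Rad51ap1/D6Wsu163e and Gen1/Smc6, with a junction resolvase and a subunit of the Smc5/6 complex. For excision repair they were Ndufaf2/Ercc8, Dak/Ddb1, Hps5/Gtf2h1, Mbd4/Ift122 and Fen1/1810006K21Rik. Recql5/Sap30bp and Dclre1b/Ap4b1 hold a helicase and a telomere nuclease.

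The regions at DNA repair genes ran from 326 bp wide at Ndufaf2/Ercc8 to 821 bp at Hscb/Chek2. Of the 16, 12 had a RUNX motif in the central 200 bp and 15 had one anywhere in the region, and the exception was Dak/Ddb1. The region of Atm/Npat was 668 bp wide with starts 307 bp apart and held 4 motifs, and those of Hscb/Chek2 and Xrcc4/Tmem167 held 4 each. The motif of 1300017J02Rik/Topbp1 printed as a site was at the very centre of its region (0 bp away), and those of Xrcc4/Tmem167 and Dclre1b/Ap4b1 were 10 bp from it. At one-way starts, Runx3 without H3K4me1 was at 16 of the 79 repair genes (20.3%), against 6.63% of all one-way starts.

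Genes of protein synthesis followed. Mitochondrial ribosomal proteins had 9 members at 32 genes (28.1%, 15.6 to 45.4), which were Gga3/Mrps7, Ptcd2/Mrps27, Mrpl13/Mtbp, Mrpl40/Hira, Mrpl18/Tcp1, Mrps18b/Ppp1r10, Mrpl49/Fau, Mrpl41/Pnpla7 and Mrpl48/Rab6. All 9 held a RUNX motif, 5 of them in the central window, and Mrps18b/Ppp1r10 was 1022 bp wide. Some partners have well-known tasks of their own, such as Hira, a chaperone of histone H3.3, and Fau, which encodes a fusion of a ubiquitin-like protein and a cytosolic ribosomal protein. Aminoacyl-tRNA synthetases, which load tRNA with amino acids, had 4 members at 12 genes (33.3%, 13.8 to 60.9). Among them were Wars/Wdr25, Orc3/Rars2 and Ears2/Ubfd1, each with a motif in the central window. Cytosolic ribosomal proteins had 2 of 14 (14.3%), Rps28/Ndufa7 and Trappc4/Rps25. That list goes by gene name and leaves out Fau.

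For the energy supply, the respiratory chain list had 6 of 35 genes (17.1%). The pairs were Fam126b/Ndufb3, Ndufaf2/Ercc8, Tatdn1/Ndufb9, Rps28/Ndufa7, Cox15/Cutc and Ndufa13/Tssk6, of which Fam126b/Ndufb3 held no RUNX motif and Cox15/Cutc held 5. Proteasome subunits and chaperonins had 4 of 20 (20%), in 5 regions at Mrpl18/Tcp1, 1700021C14Rik/Cct3, Dnajc2/Psmc2 and 1700040I03Rik/Cct7. Tcp1, Cct3 and Cct7 are subunits of the ring-shaped chaperonin that folds actin and tubulin. Vesicle traffic and autophagy had 6 of 30 (20%), among them Sec24a/Sar1b, whose proteins both belong to the COPII coat, Vps53/Fam57a and Atg13/Harbi1, with a component of the complex that starts autophagy.

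For the making of RNA, the transcription machinery had 8 of 33 genes (24.2%). Among them, subunits of RNA polymerases were at Polr3g/Mblac2, Polr3c/Rnf115, Polr2l/Tspan4 and Clcn2/Polr2h, general factors at Gtf2e1/Rabl3 and Hps5/Gtf2h1, and an elongation factor at Supt6h/Sdf2. The number of motifs over the region ran from 7 at Polr3g/Mblac2 to 0 at Clcn2/Polr2h and Gtf2e1/Rabl3, with regions 292 bp and 444 bp wide. RNA splicing had 5 of 22 (22.7%), among them Plekhj1/Sf3a2, 1810024B03Rik/Snrnp200, Srsf11/Lrrc40 and Prpf38a/Orc1.

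For cell division, DNA replication and the cell cycle had 5 of 30 genes (16.7%, 7.34 to 33.6), beside 16.2% over all genes with a partner. They were Cdc45/Ufd1l and Prpf38a/Orc1, with proteins that load or move the replicative helicase, Orc3/Rars2, Ssna1/Anapc2, with the catalytic core of the anaphase-promoting complex, and Aurka/Cstf1, with a mitotic kinase. Only Orc3/Rars2 of these had a RUNX motif in the central window. Replication-dependent histones had 7 of 37 (18.9%) in 4 regions, Hist1h2bl/Hist1h2ai, Hist1h2ag/Hist1h2bj, Gm17658/Hist1h4d and Hist2h2ac/Hist2h2be. These genes are near-identical copies, and reads that aligned to several places had been left out. Of 6 T cell genes with a bidirectional partner, 1 had a member, Jak3 at Gm9933/Jak3, the kinase of cytokine receptors that share the common gamma chain, IL-2 receptor included.

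**Figure D5:**
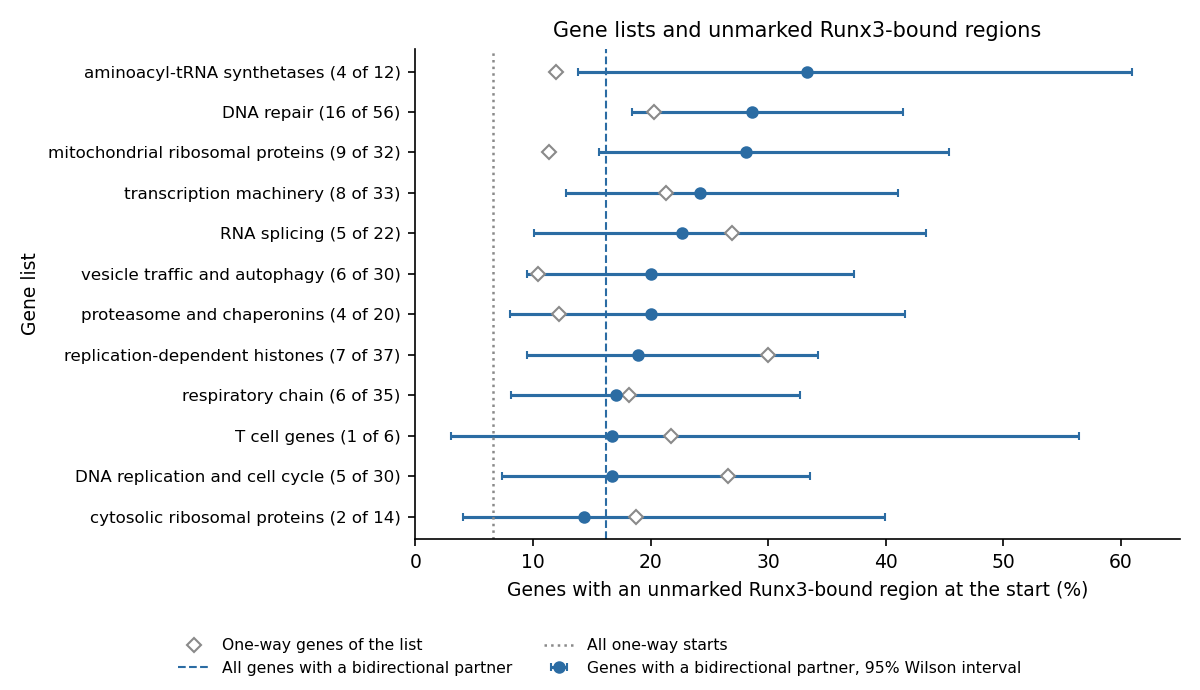
The horizontal axis is the percentage of genes with an unmarked Runx3-bound region at the start, for each gene list on the vertical axis (genes with a member of genes with a bidirectional partner). Filled points with 95% Wilson intervals are genes with a bidirectional partner and open diamonds one-way genes of the list; the dashed line is all genes with a partner (16.2%) and the dotted line all one-way starts (6.63%). Only the interval of DNA repair (18.4 to 41.5) lies wholly above the dashed line.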

How the data were processed

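ChIP-seq reads (40 to 42 bases, fragments of about 300 bp) were placed on mm9 by the authors with ELAND, and only those with a unique place were used. Repeats were merged, and MACS was run against merged NIS reads, with the larger set reduced to the size of the smaller. The deposited values are the start and end positions of these peaks, with no height, score or p-value. A region bound in 1 repeat alone may thus be included, and depth limits what was found. There were 0 further columns of per-sample values left unused. The labels give 1 H3K4me1 library and a protocol that speaks of repeats, so the number of libraries behind that list is not certain.

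Sequence and starts came from NCBIM37, the same build as mm9, with GENCODE vM1 (22367 protein-coding genes, 1 start each). Centres were compared with starts at a limit of 1000 bp, overlap needed 1 bp, and motifs were searched in 200 bp. Shares carry Wilson and differences Newcombe 95% intervals, computed in Python 3.11.15 with NumPy 2.4.6 and pandas 2.3.3, tested on simulated data. No p-value was computed, because joined lists have no replicates. Histone and other repeated genes lose reads by the unique alignment. The members, gene lists and motifs were chosen with earlier results of these data known. Named genes are those of the lists, the 5 widest members, the 5 with most RUNX motifs, the 3 closest and 3 farthest start pairs, the 3 nearest to H3K4me1 and those at the limit. A few members that this rule names are not reported here.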

Additional observations from a re-analysis of the deposited data

How the results depend on the processing

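Of 51 alternatives to 9 results, 45 gave the same call. Counted as the same were 176 members at a limit of 500 bp, 268 at 2 kb and 184 with H3K4me1-marked regions widened by 1 kb. Keeping autosomes only could not change the number, width or centre position of members, since none lay on chromosome X. The number of members (229) became 129 when both starts had to lie inside the region and 152 with divergent pairs only, since both keep a subset. The lower RUNX motif share against unmarked one-way regions (-7.53 percentage points) was -4.29 in 100 bp and -4.49 in 400 bp, both with intervals that include 0, and the lower TGTGGT share (-9.28) was -3.15 above the median GC content. The lower H3K4me1 overlap (-10.1) was -2.59 above the median CpG content, which, like midpoint windows and the leaving out of provisional genes, was added after the data were examined. The cause of these shifts was not tested. The excess of Runx3 at bidirectional starts (9.60) kept its call in every alternative run, from 6.88 with starts above the median CpG content to 11.5 with pairs less than 1 kb apart. No paired analysis was possible because the reads of the repeats were joined before peaks were called, and leaving out a replicate could not be run for the same reason. Read depth is not in the lists, so a start without a region may still be bound below the limit of calling. In the same way, an unmarked region may carry H3K4me1 below that limit.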
